A study of Mus musculus with 33 samples.

Results

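Gene expression on day 8 of embryoid body differentiation was compared between dK9.2, a mouse embryonic stem (ES) cell clone that lacks a stretch of DNA upstream of *Nanog*, and its wild-type parent E14Tg2a. The 6 libraries of the comparison, 3 per line, were taken by line and day from the labels, out of 33 libraries of the series. E14Tg2a is an ES cell line of strain 129/Ola with the genotype WT. dK9.2 was derived from it with Cas9 and a pair of guides, is homozygous for the deletion between the *Nanog* enhancer and promoter, and is 1 clone, so an effect of the deletion and a property of the clone cannot be told apart from these libraries. Both lines were grown on gelatine in serum with LIF. Per the study's methods, aggregates were kept in suspension without LIF for the first 4 days of differentiation and were then replated sparsely on gelatine, so the day 8 libraries come from attached outgrowths of embryoid bodies in serum. The study's methods state that the ES cells were karyotyped, and describe dK9.2 as karyotypically normal. They also state that the lines were differentiated in parallel in independent assays. A 2nd clone with the same deletion, dK9.1 (3 libraries on day 8), was used to estimate the spread and is set beside dK9.2 at the end.

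Embryoid bodies are aggregates in which ES cells leave pluripotency and form derivatives of several germ layers together with extraembryonic endoderm. Primitive endoderm arises beside the epiblast under GATA and SOX17 factors and gives rise to visceral endoderm, which absorbs and secretes nutrients and serum proteins under HNF4A and FOXA factors, and to parietal endoderm, which lays down basement membrane. NANOG is a transcription factor of naive pluripotent cells and of the early epiblast, where it is known to oppose the primitive endoderm programme.

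*Nanog*, the gene next to the deletion (chromosome 6 from 122707489 to 122714633 of mm10), was at 34.6, 23.7 and 22 TPM in the day 8 libraries of E14Tg2a (replicates 1, 2 and 3) and at 118, 69.9 and 126 TPM in those of dK9.2. Levels are in TPM, transcript abundances corrected for length and scaled to 1 fixed total per library. All 3 dK9.2 libraries lay above the 3 of E14Tg2a. The log2 fold change of *Nanog* was 1.91 ± 0.42 (SE), with an adjusted p of 0.0515, which missed the threshold of 0.05, and it passed once replicate number was added as a block (adjusted p = 0.0122). Since the deletion lies outside the transcript, this level does not check the genotype labels. Markers of embryoid body derivatives were read in E14Tg2a on day 8, among them embryonic haemoglobins, serum carrier proteins, collagens and cardiac genes, and *Pou5f1*, a core pluripotency factor, was still at 215, 92.3 and 91 TPM there.

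The day 8 values listed sum to between 996974 and 998266 TPM per library, and 13270 to 13795 genes reached 1 TPM. Read numbers per library cannot be recovered from TPM, and the study's methods state only an approximate depth for all libraries. Precision was taken from the replicates, whose median SD on the log2 scale was 0.22 in E14Tg2a, 0.21 in dK9.2 and 0.25 in dK9.1. The libraries numbered 2 stood apart in blood genes: the summed level of 27 endothelium and blood genes was 1442, 5402 and 1248 TPM in E14Tg2a, 138, 377 and 132 TPM in dK9.2 and 250.1, 2292 and 96.8 TPM in dK9.1. In bulk RNA, fewer cells of a type and less RNA per cell cannot be told apart.

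Most of the difference on day 8 was in 1 direction. Of the 14637 genes that averaged 1 TPM or more on day 8 in any of the 3 lines, 208 were lower in dK9.2 (1.42% of those tested) and 17 were higher (0.116%), at an adjusted p under 0.05 and an absolute log2 fold change above 1 in limma on log2(TPM + 1). Fold changes below are on this scale and are too small for genes of low level. Among these genes the largest decreases were of *Spink1*, *Ttr* and *Postn*, and the largest increases of *Snhg9* and *Hoxb1*. The 208 lower genes had a median log2 fold change of -1.66 and a median level of 22.7% of that in E14Tg2a, against a median log2 fold change of -0.05 over all genes tested. Of these, 65 lay beyond a log2 fold change of -2 and 19 beyond -3, and 199 are protein coding. Every one of the 225 genes had 3 dK9.2 libraries that did not overlap the 3 E14Tg2a libraries, while over all tested genes the libraries did not overlap for 18.9% with dK9.2 lower and for 10.3% with dK9.2 higher. The 225 genes were chosen from these same libraries, so their separation, here and gene by gene below, largely follows from the choice.

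With replicate number added as a block, 671 genes were lower (4.58%) and 142 higher (0.97%), and the 225 were among them. Leaving out 1 library lowered the number of lower genes to 36 without replicate 2 and 25 without replicate 3 of E14Tg2a, and to 32, 34 and 71 without replicates 1, 2 and 3 of dK9.2, and raised it to 284 without E14Tg2a replicate 1. The number of higher genes was then 67, 1 and 1 without E14Tg2a replicates 1, 2 and 3, and 1, 4 and 4 without those of dK9.2. Of the 45 genes named below by rule that passed the thresholds, 8 did so with each of the 6 libraries left out in turn: *Apoc2*, *Apob*, *Rbp4*, *Clic6*, *Dab2*, *Amn*, *Lama1* and *Trav5-2*. *Foxa1*, *Foxq1*, *Cited1*, *Apoa1*, *Apoa2*, *Apoe*, *Apoc1*, *Mttp*, *Cst3*, *Amot*, *Trf*, *Lrp2*, *Lrpap1*, *Lamb1*, *Lama5*, *Agrn*, *Col3a1*, *Loxl2*, *Mmp14*, *Hbb-bh1*, *Fgf8*, *Msgn1*, *Pdgfra*, *Klf4*, *Esd* and *Med4* are outside that rule and were chosen after their values were seen.

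**Figure D1:**
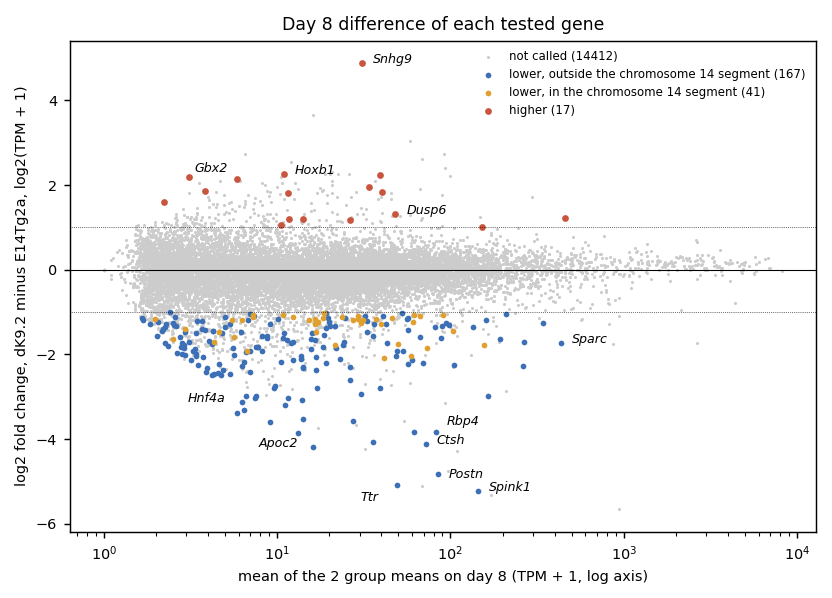
Each point is a gene tested on day 8, with the mean of the E14Tg2a and dK9.2 group means (TPM + 1, log axis) on the x axis and the log2 fold change of dK9.2 minus E14Tg2a on the y axis. Blue and orange points are the 208 genes called lower, orange those in a segment of chromosome 14 described below, red points are the 17 called higher, and dotted lines mark 1 and -1. The calls lie mostly below the line at 0, down to Spink1 at -5.22.

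Transcription factors of primitive and visceral endoderm were lower in part in dK9.2. Of 14 regulators tested, 7 passed as lower and none as higher, with a list median of -1.48, and 12 were lower with the replicate block. *Gata4* and *Sox7* of this list lie in the chromosome 14 segment described below and were not called; without them 7 of 12 were lower, 10 with the block, and the median was -1.58. *Hnf4a*, the nuclear receptor that drives the visceral endoderm and liver secretory programme, was at 8.40, 11.4 and 11 TPM in E14Tg2a and at 0.108, 0.455 and 0.323 TPM in dK9.2. Its 3 dK9.2 libraries were all below 1 TPM and those of E14Tg2a all above 8 TPM (log2 fold change -3.12, SE 0.40, adjusted p = 0.00956). *Sox17*, an early endoderm factor, was at 48.3, 35.7 and 43.1 TPM in E14Tg2a and at 6.58, 10.9 and 6.58 TPM in dK9.2, again without overlap (log2 fold change -2.29, SE 0.47, adjusted p = 0.0448). *Foxa2*, a forkhead factor of all endoderm, was at 9.63, 7.15 and 11.3 TPM in E14Tg2a and 0.920, 0.466 and 2.36 TPM in dK9.2 (log2 fold change -2.27, SE 0.45, adjusted p = 0.0395). The E14Tg2a libraries of *Foxa2* were all above those of dK9.2. *Foxa1* (-1.84), *Foxq1* (-1.46) and *Cited1* (-1.01) were lower as well. *Gata6*, the factor that starts the primitive endoderm programme, was at 36.8, 76.9 and 49 TPM in E14Tg2a and at 12.4, 21 and 14.8 TPM in dK9.2. Its libraries did not overlap, yet its log2 fold change of -1.66 ± 0.52 (SE) passed only with the block (adjusted p = 0.114 without and 0.0233 with the replicate block). The number of regulators called was 2 without E14Tg2a replicate 1, 1 without dK9.2 replicate 2 or 3 and 0 without any of the other 3 libraries. In the fit of all 33 libraries *Sox17*, *Foxq1* and *Cited1* no longer passed (adjusted p = 0.0520, 0.0654 and 0.324). Over the refits with 1 library left out the adjusted p of *Hnf4a* ranged from 0.0213 to 0.0546, that of *Sox17* from 0.0702 to 0.168 and that of *Foxa2* from 0.0516 to 0.152.

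By list median, the proteins that visceral endoderm secretes showed the largest decrease. Of 22 such genes tested, 17 were lower and none higher, the list median was -2.39, and 19 were lower with the block. Their summed level was 2725, 2602 and 2863 TPM in E14Tg2a and 833, 957 and 1293 TPM in dK9.2. *Ttr*, the carrier of thyroid hormone and of the retinol-binding protein, was at 114, 104 and 64.5 TPM in E14Tg2a and at 2.0, 2.71 and 0.803 TPM in dK9.2 (log2 fold change -5.09, SE 0.84, adjusted p = 0.0242). *Afp*, the fetal serum carrier protein, was at 129, 20.4 and 49.2 TPM in E14Tg2a and at 9.01, 0.217 and 1.46 TPM in dK9.2 (log2 fold change -4.06, SE 0.79, adjusted p = 0.0381). For both genes the lowest E14Tg2a library was above the highest of dK9.2, although *Afp* varied widely among the E14Tg2a libraries and was highest in replicate 1 of both lines.

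Of 8 apolipoproteins tested, which package lipid for export, 6 were lower. *Apoc2*, the activator of lipoprotein lipase, was at 29.8, 40.7 and 17.9 TPM in E14Tg2a and at 0.855, 0.607 and 0.335 TPM in dK9.2 (log2 fold change -4.19, SE 0.30, adjusted p = 0.00100). *Apob*, the structural protein of lipoprotein particles, was at 15.7, 22 and 9.76 TPM in E14Tg2a and at 0.465, 0.347 and 0.167 TPM in dK9.2 (log2 fold change -3.60, SE 0.32, adjusted p = 0.00217). All dK9.2 libraries of both genes were below 1 TPM. *Apom*, a carrier in high-density lipoprotein, was at 2.85% of its E14Tg2a level, *Apoa1* at 5.24% and *Apoa2* at 5.05%. *Mttp*, which loads lipid onto apolipoprotein B, was at 17.4 ± 2.34 TPM in E14Tg2a and at 4.53 ± 0.607 TPM in dK9.2 (SD, n = 3; log2 fold change -1.73). *Apoe* did not pass (log2 fold change -1.28, adjusted p = 0.0779), nor did *Apoc1* (-0.25), *Cst3* (-0.39), *Amot* (-0.49) or *Trf* (-2.33), of which *Apoe* and *Trf* passed with the block.

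*Rbp4*, the serum carrier of retinol, was at 122.6, 195 and 143 TPM in E14Tg2a and at 9.61, 11.8 and 7.80 TPM in dK9.2, with little spread within either line (log2 fold change -3.84, SE 0.34, adjusted p = 0.00217). *Spink1*, a trypsin inhibitor expressed in endoderm and gut, was at 252, 199 and 392 TPM in E14Tg2a and at 3.24, 10.7 and 6.69 TPM in dK9.2 (log2 fold change -5.22, SE 0.87, adjusted p = 0.0242). This was the largest decrease of all genes tested that passed without the block. *Ctsh*, a lysosomal cysteine protease, was at 129, 142 and 136 TPM in E14Tg2a and 3.66, 11.2 and 7.47 TPM in dK9.2 (log2 fold change -4.12, SE 0.57, adjusted p = 0.0123). With 1 library left out, the number of secreted-protein genes called was 9 and 8 without E14Tg2a replicates 2 and 3, 9 without either replicate 1 or 2 of dK9.2, and 13 and 16 without dK9.2 replicate 3 or E14Tg2a replicate 1. Over these refits the adjusted p of *Ttr* ranged from 0.0423 to 0.112, that of *Afp* from 0.0395 to 0.117, that of *Spink1* from 0.0399 to 0.110 and that of *Ctsh* from 0.0287 to 0.0691.

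Promoter sequence was searched for short motifs of endoderm factors. The 250 bases before the start were taken from RefSeq (GRCm38.p6, the build of mm10) for 159 of the 208 lower genes, and 131 of these lie outside the chromosome 14 segment, with 194 promoters. A gene was counted once if any of its promoters held the motif on either strand. TGTTTAC, a core of the forkhead (FOXA) site, was found in 9 of these 131 genes (6.87%), in 2.66% of the genes tested and in 3.54% of all 27025 genes with a promoter in the table. By promoter the share was 12.4% of 194, but 16 of the 24 matching promoters are starts of 1 noncoding gene, 9030622O22Rik, and without it the share was 4.76% of 168, against 2.25% for the genes tested. For AAAGTCC, a core of the HNF4 site, the shares by gene were 9.92%, 4.04% and 4.15%, and for AGATAA, bound by GATA factors, 11.5%, 6.94% and 11.4%. The word GTTAAT, also searched, was in 14.5%, 4.82% and 7.49%, the highest share of the lower genes among these words. None of these words contains another. The CArG box, the site of serum response factor, was in 2.29%, 1.46% and 1.62%. A match is a description of letters and not a shown binding site. The stretches below hold the forkhead matches of 3 lower genes, chosen after their values were seen because they are secreted proteins or regulators named above, with the motif or its reverse complement in capitals, written 5′ to 3′ on the strand of the gene.
Rbp4: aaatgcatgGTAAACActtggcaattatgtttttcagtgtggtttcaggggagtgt
Apoa2: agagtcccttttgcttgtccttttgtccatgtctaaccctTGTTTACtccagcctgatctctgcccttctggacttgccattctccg
Foxa1: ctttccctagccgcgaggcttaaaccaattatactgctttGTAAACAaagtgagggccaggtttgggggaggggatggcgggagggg
These lie at chr19:38125516-38125571 (minus strand, *Rbp4*), chr1:171224937-171225023 (plus strand, *Apoa2*) and chr12:57546206-57546292 (minus strand, *Foxa1*), each upstream of an annotated start and outside the transcript that begins there. The capitals begin 241, 77 and 141 bases before the start.

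Genes of the absorptive surface of visceral endoderm were split. Of 12 endocytic receptors, adaptors and channels tested, 6 were lower and none higher, also with the block (list median -1.26). *Cubn*, the cubilin receptor for vitamin B12 and proteins, was at 6.48, 2.71 and 2.23 TPM in E14Tg2a and at 0.0866, 0.119 and 0.0892 TPM in dK9.2 (log2 fold change -2.03, SE 0.30, adjusted p = 0.0176), a call lost in the fit of all 33 libraries (adjusted p = 0.0936). Its membrane partner *Amn* (amnionless) was at 10.3, 4.72 and 6.62 TPM in E14Tg2a and 0.758, 0.542 and 0.323 TPM in dK9.2 (log2 fold change -2.37, SE 0.27, adjusted p = 0.00611). *Dab2*, the adaptor that internalises these receptors, was at 70.7, 79.4 and 52.2 TPM in E14Tg2a and at 6.21, 8.75 and 11.9 TPM in dK9.2 (log2 fold change -2.80, SE 0.32, adjusted p = 0.00611). For each of these the dK9.2 libraries lay far below those of E14Tg2a. *Clic6*, a chloride channel protein, was at 49.8, 49.3 and 49.3 TPM in E14Tg2a and 2.36, 3.32 and 4.32 TPM in dK9.2 (log2 fold change -3.57, SE 0.39, adjusted p = 0.00611), *Aqp8*, a water channel, was at 3.98% and *Lrpap1*, the chaperone of LDL receptor-related proteins, at 39.5% of E14Tg2a. *Lrp2* (megalin), the large receptor that works with cubilin, was at 9.05, 5.52 and 6.91 TPM in E14Tg2a and at 6.15, 5.84 and 20.6 TPM in dK9.2, with overlapping libraries (log2 fold change 0.34, SE 0.53, adjusted p = 0.739). With 1 library left out, 3 to 6 of the genes were called, 3 being without dK9.2 replicate 2.

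Genes of parietal endoderm and basement membrane were lower in part. Of 17 tested, 5 were lower and none higher (list median -1.18), and 10 were lower with the block. *Lama1*, the laminin chain made by parietal and visceral endoderm, was at 43.9, 24.7 and 23.6 TPM in E14Tg2a and at 4.85, 6.56 and 5.61 TPM in dK9.2 (log2 fold change -2.20, SE 0.25, adjusted p = 0.00611). *Sparc*, a matrix glycoprotein abundant in parietal endoderm, was at 555, 751 and 677 TPM in E14Tg2a and 136, 227 and 251 TPM in dK9.2 (log2 fold change -1.73, SE 0.24, adjusted p = 0.0123). *Col4a2*, a chain of the network collagen of basement membranes, was at 111, 122.6 and 103 TPM in E14Tg2a and 19.5, 34 and 19.8 TPM in dK9.2 (log2 fold change -2.20, SE 0.41, adjusted p = 0.0352), a call also lost in the fit of all 33 libraries (adjusted p = 0.0601). None of the libraries of the 2 lines overlapped in these 3 genes. *Lamb1* (-1.34) and *Thbd* (-1.40), the endothelial and parietal endoderm thrombin receptor, were lower too, while *Lama5* (0.28) and *Agrn* (-0.01) did not pass. With 1 library left out, 3 of the genes were called without E14Tg2a replicate 1 and without each dK9.2 replicate, and 1 without E14Tg2a replicate 2 or 3.

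Of 12 definitive endoderm genes tested, 4 were lower (*Spink1*, *Sox17*, *Foxa2* and *Nepn*) and none higher (list median -1.19, 6 lower with the block). The first 3 are shared with the extraembryonic lists. *Nepn*, a proteoglycan of the midgut endoderm, was at 4.69, 7.46 and 0.955 TPM in E14Tg2a and at 0.0433, 0.0434 and 0 TPM in dK9.2 (log2 fold change -2.14, SE 0.45, adjusted p = 0.0463). *Cxcr4*, a chemokine receptor that is expressed in definitive but hardly in visceral endoderm, was at 27, 9.53 and 13.6 TPM in E14Tg2a and 24.3, 19.9 and 11.4 TPM in dK9.2, with overlapping libraries (log2 fold change 0.20, SE 0.49, adjusted p = 0.836), and without dK9.2 replicate 1 or E14Tg2a replicate 2 its fold change was slightly below 0. The number called was 2 without dK9.2 replicate 3, 1 without E14Tg2a replicate 1 or 3 and 0 without any of the other 3 libraries.

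**Figure D2:**
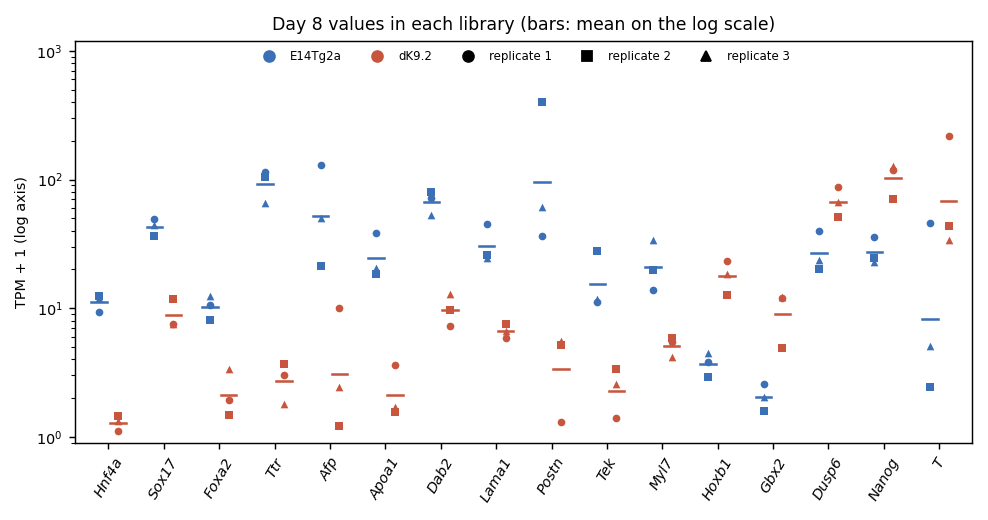
Day 8 values of 16 genes in each library, as TPM + 1 on a log axis, with E14Tg2a in blue, dK9.2 in red, 1 symbol per replicate number and a bar at the mean on the log scale. For the endoderm, matrix, vessel and heart genes from Hnf4a to Myl7 every dK9.2 point is below every E14Tg2a point, and for Hoxb1, Gbx2, Dusp6 and Nanog every dK9.2 point is above. For T the 2 lines overlap, since replicate 1 is high in both.

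Genes of mesenchyme and its matrix were lower in part. Of 27 mesenchyme and fibroblast genes tested, 4 were lower and none higher (list median -1.38), and 17 were lower with the block. *Postn* (periostin), a matrix protein of mesenchyme and heart cushions, was at 35.4, 397 and 60.1 TPM in E14Tg2a and at 0.303, 4.22 and 4.57 TPM in dK9.2 (log2 fold change -4.84, SE 1.02, adjusted p = 0.0467). *Col1a1* and *Col1a2*, the chains of type I collagen, were at 197, 488 and 192 TPM (*Col1a1*) and at 57.4, 216 and 66.3 TPM (*Col1a2*) in E14Tg2a. In dK9.2 they were at 19.8, 58 and 29.7 TPM and at 1.58, 6.45 and 14 TPM (log2 fold changes -2.99 ± 0.54 (SE), adjusted p = 0.0316, and -3.84 ± 0.73 (SE), adjusted p = 0.0357). In all 3 genes E14Tg2a replicate 2 was the highest library, and the lines did not overlap. *Cd44*, the hyaluronan receptor, was lower (log2 fold change -1.49, SE 0.32, adjusted p = 0.0494).

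Among 30 collagens and matrix enzymes tested, 6 were lower (21 with the block; list median -1.16). Beside the collagens they were *Loxl1* (-2.17 ± 0.44 (SE)), which cross-links elastin, and the collagen cross-linker *Loxl2* and the membrane protease *Mmp14*. The last 2 lie in the chromosome 14 segment. *Col3a1* was at 30.3, 549 and 49.7 TPM in E14Tg2a and at 0.455, 11.2 and 5.74 TPM in dK9.2, and its log2 fold change of -4.28 ± 1.17 (SE) passed only with the block (adjusted p = 0.0878 without and 0.00355 with the replicate block). *Acta2*, smooth muscle actin, was at 193, 620.0 and 263 TPM in E14Tg2a and 13.1, 53 and 106 TPM in dK9.2 (adjusted p = 0.0840 without and 0.00807 with the replicate block), and of 15 smooth muscle genes none was called (3 lower with the block). With E14Tg2a replicate 1 left out 4 mesenchyme genes and 8 matrix genes were called, without dK9.2 replicate 3 there was 1 of each, and with any of the other 4 libraries left out none. Over these refits the adjusted p of *Postn* ranged from 0.0398 to 0.178.

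Heart muscle genes were lower in part. Of 26 tested, 3 were lower and none higher (list median -1.0), and 13 were lower with the block. Without the 2 members in the chromosome 14 segment, 2 of 24 were lower, 11 with the block, and the median was -0.92. *Myl7*, the atrial myosin light chain, was at 12.9, 18.7 and 32.6 TPM in E14Tg2a and at 4.43, 4.87 and 3.21 TPM in dK9.2 (log2 fold change -2.03, SE 0.34, adjusted p = 0.0242). *Popdc2*, a membrane protein of heart muscle, was at 4.44, 9.87 and 5.53 TPM in E14Tg2a and 0.217, 0.813 and 0.736 TPM in dK9.2 (log2 fold change -2.22, SE 0.42, adjusted p = 0.0362). *Myh6*, the atrial myosin heavy chain, was at 3.57, 2.44 and 3.82 TPM in E14Tg2a and 1.05, 0.228 and 0.625 TPM in dK9.2 (log2 fold change -1.40, SE 0.30, adjusted p = 0.0463) and lies in the chromosome 14 segment. Its mean in E14Tg2a was 3.51 TPM on day 0 and 3.28 TPM on day 8, so it did not rise with differentiation there. In these genes the lines did not overlap. *Tnnt2*, cardiac troponin T, was at 6.69, 17.5 and 34.5 TPM in E14Tg2a and 1.31, 3.72 and 2.57 TPM in dK9.2, also without overlap, and passed with the block only (adjusted p = 0.0671 without and 0.00979 with the replicate block). The heart genes called numbered 3 without E14Tg2a replicate 1, 1 without dK9.2 replicate 3 and 0 with any of the other 4 left out.

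Endothelium and blood showed the largest gap between the tests with and without the block. Of 27 genes tested, 2 were lower, 19 with the block, and the list median was -1.81. *Tek*, the angiopoietin receptor, was at 10.3, 26.7 and 10.9 TPM in E14Tg2a and at 0.390, 2.36 and 1.56 TPM in dK9.2 (log2 fold change -2.76, SE 0.54, adjusted p = 0.0382). *Flt1*, a VEGF receptor, was at 18.4, 15.2 and 12.2 TPM in E14Tg2a and 3.30, 4.48 and 5.16 TPM in dK9.2 (log2 fold change -1.61, SE 0.30, adjusted p = 0.0335). Neither gene overlapped between the lines. Embryonic haemoglobin *Hbb-bh1* was at 809, 3735 and 866 TPM in E14Tg2a and at 1.26, 172 and 51.1 TPM in dK9.2, with replicate 2 highest in both lines. Its log2 fold change of -5.66, the lowest of the list, passed only with the block (adjusted p = 0.119 without and 0.0107 with the replicate block). *Kdr*, the VEGF receptor that marks early mesoderm as well as vessels, was at 43.4, 42.6 and 26.1 TPM in E14Tg2a and 30.2, 29.1 and 9.25 TPM in dK9.2 and overlapped (log2 fold change -0.82, SE 0.67, adjusted p = 0.504). Leaving out E14Tg2a replicate 1 left 1 call in this list, and leaving out any of the other 5 libraries left none. With replicate 2 of E14Tg2a and of dK9.1 removed together, an alternative added after seeing the data, 64 genes were lower and 3 higher over all genes, with 13 of the secreted-protein genes and none of the endothelium and blood genes among them.

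The 17 higher genes were few and had no common list. *Hoxb1*, an anterior Hox gene of the primitive streak and hindbrain, was at 2.82, 1.91 and 3.46 TPM in E14Tg2a and at 22.4, 11.8 and 17.6 TPM in dK9.2 (log2 fold change 2.27, SE 0.35, adjusted p = 0.0184). *Gbx2*, a homeobox gene of the ES cell, epiblast and midbrain-hindbrain region, was at 1.58, 0.592 and 1.03 TPM in E14Tg2a and at 11.1, 3.87 and 11.3 TPM in dK9.2 (log2 fold change 2.15, SE 0.43, adjusted p = 0.0408). *Mesp2*, a segmentation factor of presomitic mesoderm, was at 1.29, 0.108 and 0.684 TPM in E14Tg2a and at 5.24, 4.0 and 5.68 TPM in dK9.2 (log2 fold change 1.87, SE 0.33, adjusted p = 0.0277). In each of the 3, all dK9.2 libraries were above all E14Tg2a libraries. *Dusp6*, the phosphatase that dampens ERK and that ERK signalling induces, was at 38.6, 19.3 and 22.8 TPM in E14Tg2a and at 87.1, 50 and 65.4 TPM in dK9.2 (log2 fold change 1.32, SE 0.26, adjusted p = 0.0402).

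*Snhg9*, a small nucleolar RNA host gene, was at 1.07, 0 and 1.52 TPM in E14Tg2a and at 94.8, 21.5 and 61.4 TPM in dK9.2 (log2 fold change 4.88, SE 0.92, adjusted p = 0.0352). It was the only 1 of 16 such host genes called, and *Snhg1* was at 222, 194 and 233 TPM in E14Tg2a and 267, 258 and 256 TPM in dK9.2. *Trav5-2*, a T cell receptor V pseudogene in the chromosome 14 segment, was at most at 0.382 TPM in E14Tg2a and at 3.98, 4.85 and 3.44 TPM in dK9.2 (2.18 ± 0.26 (SE), adjusted p = 0.00716). On day 0 its mean was 6.55 TPM in E14Tg2a and 3.44 TPM in dK9.2. *Cabp1*, a neuronal calcium-binding protein, was at 20.3, 15.7 and 12.9 TPM in E14Tg2a and 76.2, 71.5 and 38.6 TPM in dK9.2 (log2 fold change 1.83, SE 0.36, adjusted p = 0.0382). *Ifitm1*, an interferon-induced membrane protein expressed in epiblast and germ cells, was higher in dK9.2 (1.23 ± 0.25 (SE)), as were *Tcea3* (1.21 ± 0.25 (SE)), a transcription elongation factor of ES cells, and *Csf2ra* (1.21 ± 0.21 (SE)), a cytokine receptor chain. Counted with 1 library left out, *Hoxb1* and *Gbx2* passed in 2 of the 6 refits each, *Cabp1* in 2, *Trav5-2* in all 6, and *Mesp2*, *Dusp6*, *Snhg9*, *Ifitm1* and *Csf2ra* in 1 each (adjusted p of *Hoxb1* 0.0317 to 0.105, of *Gbx2* 0.0471 to 0.175, of *Mesp2* 0.0261 to 0.121, of *Dusp6* 0.0201 to 0.164 and of *Snhg9* 0.0491 to 0.160). *Tcea3* passed in none of them (adjusted p 0.0562 to 0.177).

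Primitive streak and early mesoderm genes had the highest list median. Of 20 tested, 1 was higher (*Mesp2*) and none lower, the list median was 0.99, and with the block 9 were higher and 1 lower (*Pdgfra*, a receptor that primitive endoderm shares). *T* (brachyury), the T-box factor of the streak, was at 44.9, 1.46 and 4.09 TPM in E14Tg2a and at 218, 42.2 and 32.9 TPM in dK9.2. Replicate 1 was the highest in both lines, so the groups overlapped while each dK9.2 library exceeded the E14Tg2a library of its own number (adjusted p = 0.130 without and 0.00779 with the replicate block). *Fgf8*, a streak growth factor, was at 51.5, 6.56 and 28.7 TPM in E14Tg2a and 176, 112 and 170.1 TPM in dK9.2 (adjusted p = 0.0588 without and 0.00451 with the replicate block), and *Msgn1*, a presomitic factor, at 4.59, 0 and 0.293 TPM in E14Tg2a and 51.7, 6.73 and 2.62 TPM in dK9.2 (adjusted p = 0.208 without and 0.00428 with the replicate block). Without E14Tg2a replicate 1, 5 streak genes were called higher, and with any of the other 5 libraries left out none.

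Pluripotency genes did not pass without the block. Of 20 naive, 18 shared and 17 formative or primed genes tested, none was called in either direction, with list medians of 0.73, 0.81 and 0.95, and 3, 6 and 4 of them were higher with the block, beside 1 naive gene, *Klf4*, lower (-1.03). *Pou5f1* was at 215, 92.3 and 91 TPM in E14Tg2a and at 789, 256 and 325 TPM in dK9.2, without overlap (log2 fold change 1.72, SE 0.49, adjusted p = 0.0938; adjusted p = 0.0198 with the block). *Fgf5*, the marker of the formative epiblast, was at 5.81, 0.387 and 1.52 TPM in E14Tg2a and 19.1, 1.58 and 19.9 TPM in dK9.2, highest in replicates 1 and 3 of dK9.2 and overlapping between the lines (log2 fold change 1.84, SE 0.98, adjusted p = 0.302). Of 8 germ cell genes none was called in either fit, *Prdm1* being at 4.40, 1.89 and 1.76 TPM in E14Tg2a and 3.79, 2.47 and 3.46 TPM in dK9.2.

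In the FGF pathway genes were called in both directions. Of 19 genes of the pathway, *Fgfr2* and *Fgfr4* were lower and *Dusp6* was higher (3 lower and 4 higher with the block, list median 0.63). *Fgfr2*, the receptor expressed in primitive endoderm precursors, was at 41.9, 42.6 and 44.1 TPM in E14Tg2a and at 17.2, 23.3 and 18.3 TPM in dK9.2 (log2 fold change -1.10, SE 0.19, adjusted p = 0.0273). *Fgfr4*, a receptor of endoderm and liver, was at 3.21, 2.64 and 1.99 TPM in E14Tg2a and 0.325, 0.314 and 0.736 TPM in dK9.2 (log2 fold change -1.31, SE 0.23, adjusted p = 0.0273). Neither receptor overlapped between the lines, and *Fgfr2* was steady within E14Tg2a. *Fgf3* was at 27, 6.02 and 8.74 TPM in E14Tg2a and 36.8, 17.3 and 5.01 TPM in dK9.2 and overlapped (log2 fold change 0.37, SE 0.77, adjusted p = 0.806). With 1 library left out, *Fgfr2* passed in 1 refit and *Fgfr4* in 2 (adjusted p 0.0423 to 0.123 and 0.0440 to 0.110).

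In the retinoid pathway (13 tested) the calls were the serum carriers *Ttr* and *Rbp4*, both lower. None of 22 Wnt genes was called (3 lower and 3 higher with the block), nor any of 22 *Nodal*, TGF-beta and BMP genes (2 lower and 3 higher with the block). *Nodal* itself was at 9.06, 4.85 and 6.10 TPM in E14Tg2a and 19.6, 9.02 and 15.2 TPM in dK9.2 (log2 fold change 1.0, SE 0.33, adjusted p = 0.127) and *Wnt3* at 18.2, 9.90 and 14.4 TPM in E14Tg2a and 32.6, 21.5 and 12.6 TPM in dK9.2 (log2 fold change 0.56, SE 0.36, adjusted p = 0.397). Of 26 integrin and focal adhesion genes none was called (2 lower with the block), and *Itgb1*, the common integrin beta chain, was at 263, 439.6 and 361 TPM in E14Tg2a and 159, 193 and 212 TPM in dK9.2 (log2 fold change -0.89, SE 0.20, adjusted p = 0.0562). *Cdkn1c*, an imprinted cell cycle inhibitor, was lower, at 344, 541 and 409.8 TPM in E14Tg2a and 69.1, 119 and 78.4 TPM in dK9.2 (log2 fold change -2.28, SE 0.40, adjusted p = 0.0277). It was the only call among 22 imprinted genes (6 lower with the block) and among 24 cell cycle genes, where *Mki67*, a proliferation marker, was at 45.6, 55.4 and 38.8 TPM in E14Tg2a and 39.4, 48.7 and 43.9 TPM in dK9.2. *H19*, an imprinted RNA of endoderm and mesoderm, was at 4734, 1757 and 1958 TPM in E14Tg2a and 850.0, 2319.6 and 1162 TPM in dK9.2 and overlapped.

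Most other lists held no call. Of 13 neural genes, 20 of simple epithelium and 12 of trophoblast none passed, with medians of 0.62, -0.24 and -0.47, and with the block 1 neural and 1 trophoblast gene were lower. *Sox1*, the early neural factor, was at 0.426, 0.0753 and 0.543 TPM in E14Tg2a and 0.790, 0.542 and 7.23 TPM in dK9.2, with replicate 3 of dK9.2 above the rest. *Krt8*, a keratin of simple epithelia, endoderm included, was at 928, 756 and 800.1 TPM in E14Tg2a and at 362, 595 and 479 TPM in dK9.2, without overlap but short of the thresholds (log2 fold change -0.81, SE 0.18, adjusted p = 0.0539). Of 37 Hox and Cdx genes *Hoxb1* alone was called (2 higher with the block, list median 0.09), *Cdx2* was at 97.4, 36.7 and 34.1 TPM in E14Tg2a and 132, 150.3 and 48.8 TPM in dK9.2, and *Cdx1* at 1.15, 1.26 and 1.27 TPM in E14Tg2a and 3.12, 1.96 and 1.35 TPM in dK9.2. There was no call in either fit among 88 ribosomal protein genes (median 0.13; *Fau* 0.02), 11 mitochondrially encoded genes (median 0.20; mt-Atp6 0.17), 20 genes of glycolysis and hypoxia (*Hk1* -0.66) and 12 immediate early genes (*Fos* -0.20). Among 18 targets of ATF4, 13 of MHC class I and 22 of cholesterol synthesis none was called without the block, and 2, 2 and 0 were higher and 0, 0 and 1 lower with it (*Atf4* 0.48, *B2m* -0.20).

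**Figure D3:**
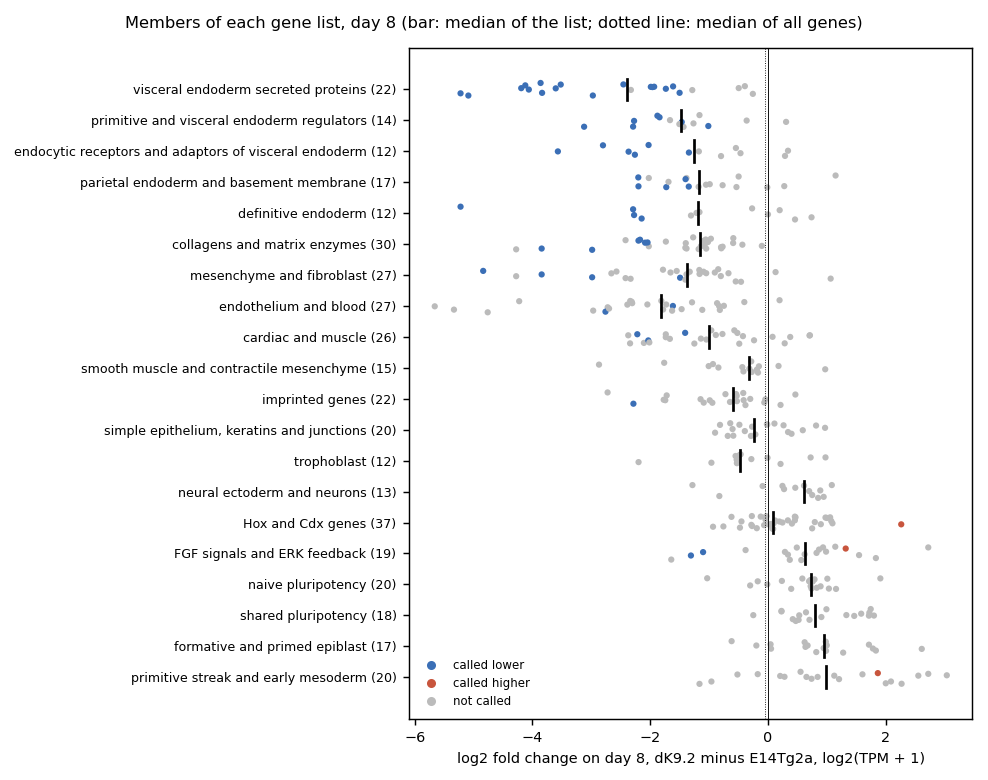
The log2 fold change on day 8 (x axis, dK9.2 minus E14Tg2a) of each tested member of 20 gene lists, with the number tested in brackets, a black bar at the list median and a dotted line at the median of all genes. Blue members are called lower and red ones higher. The visceral endoderm secreted proteins sit farthest to the left (median -2.39), and the primitive streak list farthest to the right (median 0.99) with 1 call.

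A segment of chromosome 14, from 50 to 80 Mb of mm10, held 41 of the 208 lower genes. Of 237 genes tested there, 222 had a negative log2 fold change on day 8, the median was -0.78, and 17.3% were called lower, against 1.16% of the other 14400 genes. The rest of chromosome 14 had a median of -0.19 over 276 genes with 2 called lower. The segment was chosen with earlier results of these data known, so its share is a description. Its genes have mixed functions. *Esd*, an esterase, was at 122, 180.4 and 152 TPM in E14Tg2a and at 43.6, 60.6 and 60.8 TPM in dK9.2 (log2 fold change -1.44, SE 0.22, adjusted p = 0.0176). *Med4*, a Mediator subunit, was at 77.7, 90 and 80.2 TPM in E14Tg2a and 39.5, 41.7 and 35.4 TPM in dK9.2 (log2 fold change -1.07, SE 0.13, adjusted p = 0.00956), and *Mmp14*, the membrane collagenase, at 62.1, 139.7 and 85.5 TPM in E14Tg2a and 18.6, 22 and 23.3 TPM in dK9.2 (log2 fold change -2.04, SE 0.34, adjusted p = 0.0242). None of the 3 overlapped between the lines. The 237 genes had a median of -0.67 on day 8 in dK9.1 against the same E14Tg2a libraries.

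On day 0, before differentiation, the segment was already lower by value. Of its 237 genes tested on day 8, 227 had a negative log2 fold change on day 0 (median -0.51). The same number was negative on day 4 (median -0.54), then 228 on day 6 (median -0.84), and the day 8 median of -0.78 was no further from 0 than that of day 6. TPM does not separate the number of copies of a segment from the RNA made per copy, so for the genes called there, *Mmp14*, *Loxl2* and *Myh6* among them, these cannot be told apart. The study's methods describe dK9.2 and dK9.1 as karyotypically normal without giving the resolution, and copy number was not tested here. The 41 genes called lower on day 8, which that day chose, all had a negative log2 fold change on day 0, with a median of -0.62, and the medians were -0.74 on day 4, -1.16 on day 6 and -1.20 on day 8. Over all genes tested on day 8, 40.4%, 61.7% and 56.4% were negative on days 0, 4 and 6. Without the segment, 167 genes were lower and 16 higher on day 8. Among these 167 were all those named in the endoderm lists.

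**Figure D4:**
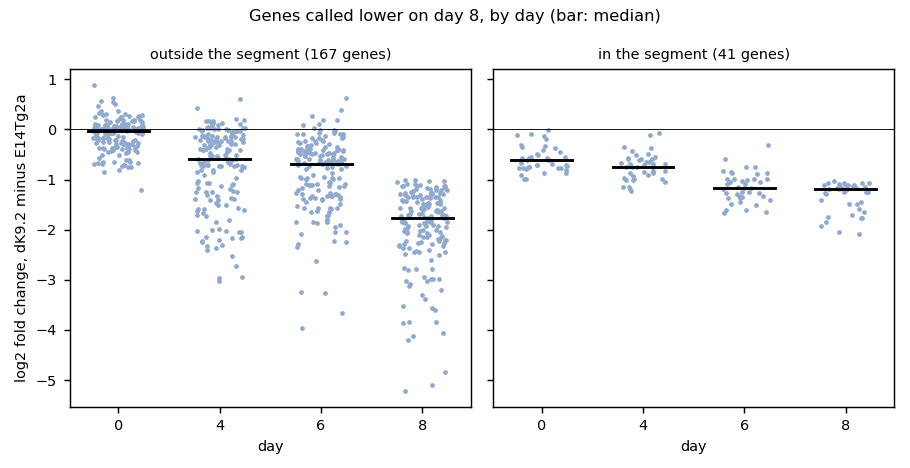
The log2 fold change (y axis, dK9.2 minus E14Tg2a) on days 0, 4, 6 and 8 of the 208 genes called lower on day 8, for the 167 outside the chromosome 14 segment (left) and the 41 inside it (right), with a bar at the median. Outside the segment the median goes from -0.03 on day 0 to -1.77 on day 8, while inside it is -0.62 on day 0 and -1.20 on day 8. Day 8 chose the genes, so its values are below -1 by construction.

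The 167 lower genes outside the segment were followed through days 0, 4 and 6, whose libraries did not enter their choice. On day 0 their median log2 fold change was -0.03 and 94 were negative, on day 4 it was -0.58 with 145 negative, and on day 6 it was -0.70 with 159 negative. In E14Tg2a the median of their mean levels was 2.85 TPM on day 0, 6.48 TPM on day 4, 4.17 TPM on day 6 and 15.8 TPM on day 8. In dK9.2 it was 2.34, 3.07, 1.39 and 3.03 TPM. The dK9.2 mean on day 8 was above its own day 0 mean for 96 of the genes and above its own day 6 mean for 128. Few of these genes passed on the earlier days: none of those tested on day 0 or day 4 and 1 on day 6, where all genes together gave 3 calls on day 0 (0.0207%), 1 on day 4 (0.0071%) and 14 on day 6 (0.0983%, 2 libraries per line).

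*Ttr* and *Afp* were near 0 TPM in both lines on day 0. On day 4 *Ttr* was at 125, 20.6 and 59 TPM in E14Tg2a and at 23.9, 2.33 and 3.10 TPM in dK9.2, and *Afp* at 255, 20.2 and 76.7 TPM and at 42.5, 2.75 and 3.75 TPM. In both genes each dK9.2 library was below the E14Tg2a library of its number on day 4, but the lines overlapped and neither gene passed on that day. *Hnf4a* was at 4.25, 1.94 and 2.27 TPM in E14Tg2a and at 6.66, 3.02 and 2.51 TPM in dK9.2 on day 0. By day 4 it was at 13.9, 3.35 and 7.21 TPM in E14Tg2a and at 5.21, 1.02 and 0.529 TPM in dK9.2, and on day 6 at 2.40 and 1.59 TPM in E14Tg2a and at 0.155 and 0.0868 TPM in dK9.2. *Postn* was under 2 TPM in all libraries of both lines through day 6, and its difference was seen on day 8 only.

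For the 16 higher genes outside the segment the median of the mean levels in E14Tg2a was 30.7 TPM on day 0, 17.98 TPM on day 4, 18.01 TPM on day 6 and 6.73 TPM on day 8, and in dK9.2 it was 24.7, 24.3, 24.4 and 27.2 TPM. *Hoxb1* was at 21.6 and 17.3 TPM in E14Tg2a and at 9.74 and 15.4 TPM in dK9.2 on day 6, so it was high in both lines on day 6 and in dK9.2 on day 8. *T* was at 211 and 224 TPM in E14Tg2a and at 215 and 249 TPM in dK9.2 on day 6. *Pou5f1* was at 848 and 959 TPM in E14Tg2a and at 1665 and 1376 TPM in dK9.2 on that day. *Nanog* was at 326, 338 and 368 TPM in E14Tg2a and at 412, 439 and 426 TPM in dK9.2 on day 0, and at 122 and 140.5 TPM in E14Tg2a and 179 and 172 TPM in dK9.2 on day 6. All dK9.2 libraries of *Nanog* were above those of E14Tg2a on both days and overlapped them on day 4, and the gene passed on none of the 3 days. *Tek* was at 6.18, 3.41 and 3.43 TPM in E14Tg2a and at 7.95, 6.67 and 6.60 TPM in dK9.2 on day 0, again higher in each dK9.2 library, and it was lower in each on day 8.

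**Figure D5:**
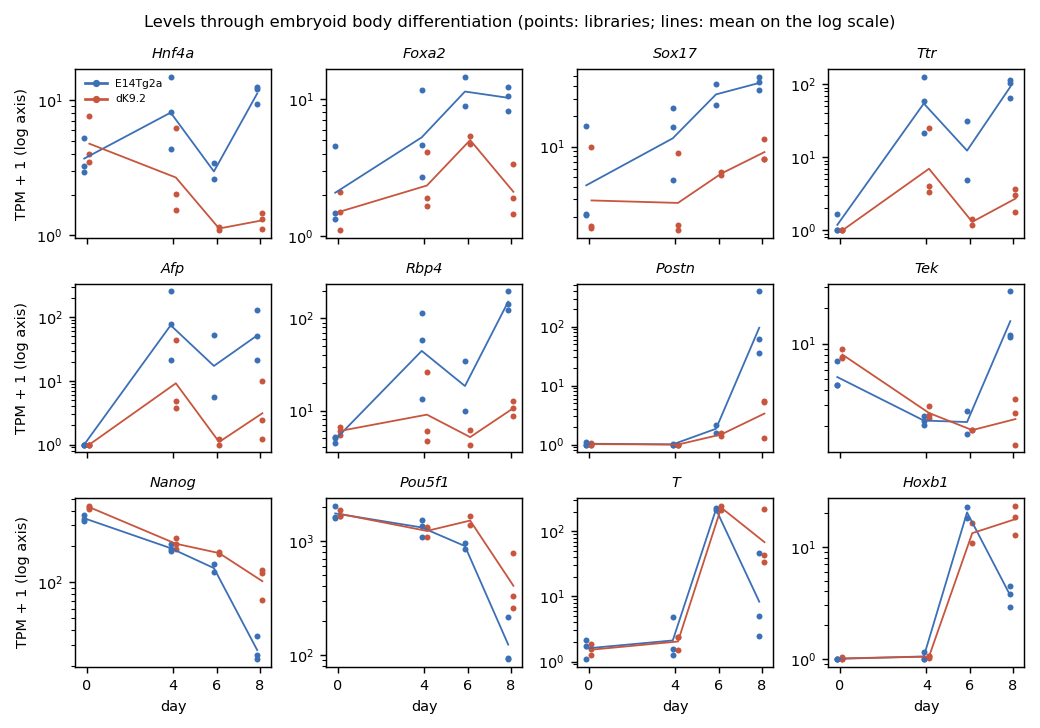
TPM + 1 (log axis, a range of its own in each panel) of 12 genes on days 0, 4, 6 and 8 in E14Tg2a (blue) and dK9.2 (red), with a point per library and a line through the means on the log scale. The dK9.2 points of Ttr, Afp and Rbp4 overlap those of E14Tg2a on day 4 and lie below them on days 6 and 8, and those of Postn and Tek lie below on day 8. Nanog is above E14Tg2a in every dK9.2 library on days 0, 6 and 8, Pou5f1 on days 6 and 8 and Hoxb1 on day 8, while T overlaps on each day.

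Whether the difference had changed between day 0 and day 8 was tested directly in the 18 libraries of both days. Of 15988 genes tested, 48 had a more negative difference on day 8 (0.3%) and 10 a more positive one (0.0625%), and with the block there were 549 (3.43%) and 117 (0.732%). The genes given here were named in part for their day 8 difference, and the day 8 libraries enter this test, so their values are no independent support. *Rbp4* changed by -4.15 (SE 0.41, adjusted p = 9.73e-05), *Apob* by -3.72 (adjusted p = 9.73e-05), *Apoc2* by -4.11 (adjusted p = 0.000108), *Hnf4a* by -3.49 (adjusted p = 0.0142) and *Ttr* by -4.84 (adjusted p = 0.0361). *Hoxb1* changed by 2.25 (adjusted p = 0.0165) and *Gbx2* by 2.93 (adjusted p = 0.0134). For *Gata6* the change was -0.93 and did not pass (adjusted p = 0.713).

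The clones dK9.2 and dK9.1 share the E14Tg2a libraries, so their values are set side by side and were compared directly. Against E14Tg2a, 106 genes were lower in dK9.1 (0.724%) and 6 higher (0.041%). For the 208 lower genes the median log2 fold change was -1.66 in dK9.2 and -1.39 in dK9.1, and for the 17 higher genes it was 1.82 and 1.35. Since these genes were chosen for passing in dK9.2, larger medians in that clone follow from the choice. Between the clones no gene passed on day 8 (0.0%), with 345 genes at an unadjusted p under 0.05, and none passed with the block (995 at an unadjusted p under 0.05) or in the fit of all 33 libraries. For the 208 lower genes, with the same choice, dK9.2 minus dK9.1 ranged from -1.53 to 0.67. *Hnf4a* was at 0.0644, 2.49 and 0.245 TPM in dK9.1, *Ttr* at 1.12, 20.9 and 0.400 TPM and *Tek* at 4.94, 12.8 and 2.52 TPM, each highest in replicate 2 of that clone. The largest direct difference among the lower genes was that of *Tek* (-1.53), and *Cdkn1c* differed by -1.11, both with adjusted p = 1.0.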

How the data were processed

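Poly-A, strand-specific RNA-seq libraries of ES cells and embryoid bodies were used. Per the labels and the study's methods, the authors aligned the reads to mm10 with STAR and estimated abundances with RSEM, and deposited TPM for 16336 genes in 33 libraries (versions are not given in the sources used here). The deposited log2 fold changes and adjusted p-values of the authors' own comparisons were not used. The study's methods give an approximate sequencing depth shared by all libraries, but the TPM table holds no read counts, so the depth of each library is not known here.

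Groups came from the labels. Values were taken as log2(TPM + 1), genes averaging 1 TPM or more in any line were kept, and limma 3.58.1 in R 4.3.3 (empirical Bayes with an intensity trend, Benjamini-Hochberg adjustment) was fitted to the 9 day 8 libraries, to each other day and to the 18 libraries of days 0 and 8. A gene was called at an adjusted p under 0.05 and an absolute log2 fold change above 1. P-values rest on the spread between replicate libraries within the lines of each fit. They do not cover the spread between clones, since dK9.2 is 1 clone. The code was checked on simulated libraries with independent noise. Those libraries shared no deviation by replicate number, so the check does not cover that feature of the real libraries. Gene positions came from GENCODE M21 for 14435 of the genes tested (98.6%), and promoters from RefSeq. Figures were drawn with matplotlib 3.10.9.

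Named genes were *Nanog*, the 10 called genes in each direction with the largest change, no overlap and a symbol that is not a predicted gene, and in each list the first gene and up to 4 called genes. Some of these are not reported here. The members and lists were chosen with earlier results of these data known. In the lists, Spink3 and Zac1 were read as *Spink1* and *Plagl1*.

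Same-numbered day 8 libraries of different lines deviated together from their group means (9 pairs, r from 0.19 to 0.41), unlike those of different number (18 pairs, r from -0.38 to 0.11), and the methods state parallel assays, so the replicate number was taken as pairing and its block is given where it changed a call. Alternatives tried were a 0.1 TPM pseudocount, no minimum or 5 TPM, median ratio rescaling, the block, a fit of 6 or of all 33 libraries, each library left out, the chromosome 14 segment left out and, added after seeing the data, the number 2 libraries of E14Tg2a and dK9.1 left out.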

Additional observations from a re-analysis of the deposited data

Results flagged for a closer look

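Among the named genes, 14 had a dK9.2 minus E14Tg2a difference that was not the same on day 0 and day 8 in limma's test of that change, a difference in log2 fold changes. All 14 were named for passing on day 8, and the day 8 libraries enter this test, so these values are no independent support. Over all 15988 genes tested, 48 had a more negative difference on day 8 (0.3%) and 10 a more positive one (0.0625%). The change was -4.84 for *Ttr* (adjusted p = 0.0361), -4.15 for *Rbp4* (9.73e-05), -4.11 for *Apoc2* (0.000108), -4.05 for *Apom* (0.0210), -3.72 for *Apob* (9.73e-05) and -3.49 for *Hnf4a* (0.0142), all genes of the visceral endoderm lists. It was -3.40 for the chloride channel gene *Clic6* (0.0110), -3.39 for the vessel gene *Tek* (0.0245) and -2.28 for the heart gene *Myl7* (0.0142). On day 0 these 9 genes had log2 fold changes of -0.25, 0.31, -0.08, 0.19, 0.12, 0.37, -0.17, 0.63 and 0.25.

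The change was positive for *Gbx2* (2.93, adjusted p = 0.0134), *Trav5-2* (2.85, 0.0165), *Hoxb1* (2.25, 0.0165), *Mesp2* (2.0, 0.0245) and *Dusp6* (1.69, 0.0347). Each group held 3 libraries, and no library was tested as standing apart from its group.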

How the results depend on the processing

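The 225 genes called on day 8 kept their direction under each alternative in which they were tested, which was all but 2: a minimum of 5 TPM left 182 of them and leaving out the chromosome 14 segment 183. The 208 lower and 17 higher genes became 671 and 142 with the replicate block, 701 and 157 in the fit of all 33 libraries, 89 and 3 with no minimum, and 64 and 3 without the number 2 libraries of E14Tg2a and dK9.1. In the fit of all 33 libraries 216 of the 225 stayed called, and the named genes lost were *Sox17* (adjusted p = 0.0520), *Col4a2* (0.0601), *Foxq1* (0.0654), *Cubn* (0.0936) and *Cited1* (0.324). Of the genes named by rule, that fit gained *Nanog* (adjusted p = 4.35e-05), *Tnnt2* (0.000465), *Pou5f1* (0.000582), *Acta2* (0.00156), *Nodal* (0.00794), *T* (0.00951) and *Fgf5* (0.0487). With 1 library left out the lower and higher genes ranged from 25 to 284 and from 1 to 67. The change from day 0 to day 8 gave 58 calls, 666 with the block and 292 over all libraries. Day 0 gave 3 calls (15 with the block, 9 over all libraries), day 4 gave 1 (15 and 23) and day 6 gave 14 (8 and 153). A pseudocount of 0.1 gave 166 lower and 20 higher genes, a minimum of 5 TPM 164 and 16, rescaling 194 and 23, only 6 libraries 171 and 12, and leaving out the segment 167 and 16. The block changed no call other than those given in the text and those within these counts. Uncalled genes turned sign without E14Tg2a replicate 2, to -0.11 (*Cxcr4*), -0.0136 (*Fau*), -0.0373 (*Fgf3*) and 0.0584 (*Mki67*), and took the same values without the number 2 libraries of E14Tg2a and dK9.1. Without dK9.2 replicate 1, *Cxcr4* (-0.0151), *Fgf3* (-0.24), *Mki67* (0.00485) and *B2m* (0.0913) did. With 1 library left out the ranges were -0.11 to 0.59 for *Cxcr4*, -0.0136 to 0.0654 for *Fau*, -0.24 to 1.08 for *Fgf3*, -0.19 to 0.0584 for *Mki67* and -0.62 to 0.0913 for *B2m*. Counting each named gene under each setting, 809 cases kept the reported state, which for an uncalled gene means that it stayed uncalled. A call was lost in 258 cases, all of genes called in the main fit, and gained in 18. Over the list counts 887 stayed near the reported count, counts of 0 that stayed 0 included, and 223 did not. The causes were not tested. Without reads per gene the counting error of genes near 1 TPM could not be given, and 1 clone limits what the deletion can be set against.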

Other observations

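Further gene groups were drawn up after the values were seen, so their counts are descriptions. Of 10 cathepsins, the lysosomal proteases, 5 were lower in dK9.2 on day 8 (6 with the block, list median -1.33). *Ctsl* was at 391, 554 and 497 TPM in E14Tg2a and at 199.9, 217 and 182 TPM in dK9.2 (log2 fold change -1.25, SE 0.17, adjusted p = 0.0112), and *Ctsc* at 23.8, 23 and 20.9 TPM in E14Tg2a and 9.71, 5.79 and 5.02 TPM in dK9.2 (log2 fold change -1.63, SE 0.22, adjusted p = 0.0112). *Ctsh* and *Ctso* were lower as well, and *Ctsb*, which lies in the chromosome 14 segment. *Ctsd*, an aspartic protease of lysosomes, was at 195, 189.8 and 177 TPM in E14Tg2a and 111, 140.2 and 166 TPM in dK9.2 and did not pass (log2 fold change -0.44, SE 0.15, adjusted p = 0.130). With E14Tg2a replicate 1 left out 5 were called, without dK9.2 replicates 1, 2 and 3 there were 1, 2 and 3, and without E14Tg2a replicate 2 or 3 none.

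Of 24 genes of coagulation, fibrinolysis and complement, 9 were lower (11 with the block, list median -0.96). *F2* (prothrombin) was at 4.51, 1.91 and 3.62 TPM in E14Tg2a and at 0.108, 0 and 0.513 TPM in dK9.2 (log2 fold change -1.82, SE 0.28, adjusted p = 0.0194), and *Serpinf2*, the inhibitor of plasmin, at 2.56, 2.57 and 2.25 TPM in E14Tg2a and 0.0758, 0.0217 and 0.0223 TPM in dK9.2 (log2 fold change -1.73, SE 0.20, adjusted p = 0.00708). *Tfpi*, the inhibitor of tissue factor, was at 41.3, 30.1 and 37.5 TPM in E14Tg2a and 5.74, 8.63 and 8.74 TPM in dK9.2 (log2 fold change -2.11, SE 0.29, adjusted p = 0.0123). All 3 were without overlap between the lines, and *Fgb* and *Thbd* of the lists above were among the 9. The number called was 8 without E14Tg2a replicate 1, 4 and 1 without its replicates 2 and 3, and 2, 2 and 5 without dK9.2 replicates 1, 2 and 3. Of 21 enzymes of heparan sulfate and other glycans, 5 were lower, also with the block (list median -0.21), among them the sulfotransferases *Hs3st1* (-2.0 ± 0.29 (SE)) and *Hs6st2* (-1.49 ± 0.28 (SE)), while without E14Tg2a replicate 3 or dK9.2 replicate 1 or 2 none was called, and without E14Tg2a replicate 2 or dK9.2 replicate 3 there were 2.

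Several lower genes outside all lists are known from gut and liver, and they too were picked after their values were seen. *Ihh*, a hedgehog ligand made by visceral endoderm and gut, was at 5.37, 5.39 and 6.09 TPM in E14Tg2a and at 0.260, 0.444 and 0.257 TPM in dK9.2 (log2 fold change -2.33, SE 0.24, adjusted p = 0.00424). *Rfx6*, a transcription factor of gut and pancreas, was at 4.75, 5.73 and 8.0 TPM in E14Tg2a and 0.141, 0.271 and 0.335 TPM in dK9.2 (log2 fold change -2.50, SE 0.28, adjusted p = 0.00611). *Dpp4*, a peptidase of absorptive membranes, was at 8.83, 15.9 and 7.86 TPM in E14Tg2a and 0.271, 0.976 and 0.167 TPM in dK9.2 (log2 fold change -2.99, SE 0.39, adjusted p = 0.0112). In these 3 genes each dK9.2 library was below 1 TPM. *S100g*, a calcium-binding protein of absorptive epithelia, was at 9.22, 6.53 and 13.5 TPM in E14Tg2a and listed at 0 in each dK9.2 library (adjusted p = 0.00100). *Igfbp1*, a liver-secreted binding protein of insulin-like growth factors, was at 4.52, 1.70 and 1.81 TPM and likewise listed at 0 (adjusted p = 0.0216).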
